A study of Mus musculus with 48 samples.

Results

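A group of 10 inflammatory genes was followed through the passage from myeloid progenitor to monocyte in 24 clonal mouse cell cultures. They were the rows named Il1b, Tnf, Il6, Il1rn, Ptgs2, Nfkb1, Rela, Nfkbia, Nfkbiz and Tnfaip3, out of 34643 rows of the deposited expression table, and all 10 were found. ER-Hoxb8 cells are bone marrow progenitors held in a dividing state by a fusion of the homeobox factor Hoxb8 with the estrogen receptor, and they mature when that factor loses its activity. Each clone gave 1 RNA-seq library of cells labelled GMP, granulocyte-monocyte progenitors, and 1 of cells labelled monocytic (24 progenitor and 24 monocyte libraries), and the 48 libraries form pairs within clones numbered 1 to 13, 15 to 24 and 26. All cultures of both states carried ER-Hoxb8, and a single growth protocol, RPMI medium with serum, antibiotics and stem cell factor, is given for all of them. Each culture grew from a single clone. The sources used here do not name the mouse strain, the animals behind the clones, the days of maturation or any inflammatory stimulus, so p-values measure the spread among these clones, which may share an animal. Values are TPM, abundances corrected for transcript length and expressed as a part of each library. TPM do not carry the depth of sequencing, which is unknown here, so the values come without a counting error.

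NF-kB is a family of dimeric transcription factors that wait in the cytoplasm, bound by inhibitors, until a signal from a cytokine or microbial receptor has the inhibitor destroyed. The freed dimer enters the nucleus and switches on inflammatory cytokines, and with them the genes of its own inhibitors, which end the response. Il1b, Tnf and Il6 encode the cytokines interleukin 1 beta, tumour necrosis factor and interleukin 6, and Il1rn encodes the interleukin 1 receptor antagonist, which occupies the receptor without signalling. Ptgs2 encodes cyclooxygenase 2, the inducible enzyme of prostaglandin synthesis. Nfkb1 (p105, processed to p50) and Rela (p65) encode the classical NF-kB dimer. Nfkbia encodes IkB alpha, the inhibitor that is remade after each round of activation, Nfkbiz encodes the nuclear protein IkB zeta, and Tnfaip3 encodes A20, a ubiquitin-editing enzyme that cuts the signal upstream.

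The binding site through which the family reads its target genes can be seen in the DNA before 3 of these genes. RefSeq windows of the 250 bases before a gene's start, on build GRCm38.p6, were at hand for 8 of the 10 genes in 11 windows, and not for Nfkbiz and Nfkb1. The kappa B consensus, searched on both strands, was in 7.25% of the 32851 windows of this length over all genes, and in the windows of Il6, Nfkbia and Tnfaip3. Those 3 windows are printed 5′ to 3′ on the gene's own strand with the matching letters in capitals. They cover chr5:30012864-30013113 (plus strand) for Il6, chr12:55492648-55492897 (minus strand) for Nfkbia and chr10:19015411-19015660 (minus strand) for Tnfaip3.
Il6: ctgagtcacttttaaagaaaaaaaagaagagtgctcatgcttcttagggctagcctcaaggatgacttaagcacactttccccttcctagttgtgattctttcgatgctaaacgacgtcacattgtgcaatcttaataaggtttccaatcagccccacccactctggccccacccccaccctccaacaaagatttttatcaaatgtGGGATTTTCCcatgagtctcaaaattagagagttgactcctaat
Nfkbia: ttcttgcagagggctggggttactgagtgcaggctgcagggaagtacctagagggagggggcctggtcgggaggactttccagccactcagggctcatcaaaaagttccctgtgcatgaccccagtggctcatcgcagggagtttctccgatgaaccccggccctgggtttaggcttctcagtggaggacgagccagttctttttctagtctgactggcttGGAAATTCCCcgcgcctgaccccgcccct
Tnfaip3: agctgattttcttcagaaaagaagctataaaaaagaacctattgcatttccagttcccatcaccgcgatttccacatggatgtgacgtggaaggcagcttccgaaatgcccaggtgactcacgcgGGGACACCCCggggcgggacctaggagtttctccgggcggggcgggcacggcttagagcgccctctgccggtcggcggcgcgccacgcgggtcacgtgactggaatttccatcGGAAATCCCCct
The match lies 44 to 35 bases before the start in Il6 and 29 to 20 bases before it in Nfkbia. Tnfaip3 has a pair of matches, 125 to 116 and 12 to 3 bases before the RefSeq start, which lies inside the gene as the GENCODE annotation draws it. The AP-1 site TGANTCA was in 6.75% of all windows and in those of Il1rn, Il6 and Tnfaip3. The TATA box TATAAA was in 12.4% of all windows and in those of Il1b, Tnf and Tnfaip3, and the C/EBP pattern TTGCNNAA was in 9.56% of them and in those of Il6 and Ptgs2. These matches describe letters only, and an absent match says nothing of regulation from elsewhere. On build mm10 the cytokine genes lie on chromosome 2 from 129364570 to 129371139 (Il1b), chromosome 17 from 35199381 to 35202007 (Tnf) and chromosome 5 from 30013114 to 30019981 (Il6). Il1rn lies on chromosome 2 from 24336853 to 24351494, Ptgs2 on chromosome 1 from 150100031 to 150108227, Nfkb1 on chromosome 3 from 135584655 to 135691547 and Rela on chromosome 19 from 5637483 to 5648130. The genes of IkB alpha, IkB zeta and A20 lie on chromosome 12 from 55489410 to 55492647 (Nfkbia), chromosome 16 from 55811375 to 55838899 (Nfkbiz) and chromosome 10 from 19000910 to 19015657 (Tnfaip3). All 10 genes are annotated as protein-coding.

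Some libraries stood apart before any comparison. In progenitor clone 21 a total of 23247 genes were at 0. Progenitor clone 24 reached 1 TPM in 8240 genes against up to 11030 in the others, and mitochondrial transcripts took 25.1% of TPM in monocyte clone 26. The summed TPM of 6 progenitor markers fell from a median of 775 to 55.5, and that of 7 monocyte markers stood at a median of 241 in progenitors and 11644 in monocytes, with 5 of the 7 higher, F13a1 not called and Ccr2 lower. The libraries labelled monocytic also held neutrophil transcripts: the summed TPM of 10 neutrophil markers went from a median of 36.9 (7.54 to 10923) to 74584 (388 to 187456), and all 10 rose. Macrophage markers had a median sum of 10.4 and then 340 TPM, eosinophil markers 1.45 and then 118 TPM, and mast cell and basophil markers 1413 and then 51.9 TPM. Among lymphoid markers Cd3e was at 0 in every library, while Il7r rose from a mean of 0.721 to 12 TPM, and Dntt and Ebf1 fell from 10.4 to 0.0347 TPM and from 3.99 to 0.225 TPM. Hba-a1 and Cdh5, markers of red cells and endothelium, had medians of 0 in both states, while Hbb-bs fell from 15.3 to 0.15 TPM, Itga2b from 72.4 to 5.73 TPM and Pecam1 from 31.8 to 10.2 TPM. The part of these cells in the results was not tested, and in cultures measured in bulk a smaller share of expressing cells and less RNA per cell cannot be told apart.

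Of the 10 genes 7 rose from progenitor to monocyte, Il6 fell, and Nfkb1 and Ptgs2 were not called. The largest rises were those of the interleukin 1 receptor antagonist, interleukin 1 beta, IkB alpha and tumour necrosis factor. Calls rest on limma with clone as a block on log2(TPM + 1) and an adjusted p under 0.05 over 11072 genes with a mean of at least 1 TPM. On that scale a fold change understates the change of a low gene. Most of the transcriptome moved between the states: 68.8% of all genes tested were called, 32.4% higher and 36.5% lower, so a call alone sets none of the 10 apart. Il1b, Il1rn and Ptgs2 passed the filter through the monocyte libraries alone and Il6 through the progenitor libraries alone. For Ptgs2 it was monocyte clone 1, at 44.5 TPM, that carried the mean past the filter. Without the filter the same 7 and 1 calls were made. Without clones 19, 21, 24 and 26, whose libraries stood apart, 7 members were higher and 1 was lower, beside 33.2% and 38.6% of all genes, and without clones 20 and 22 as well the counts were again 7 and 1, beside 33.6% and 36.8%.

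**Figure D1:**
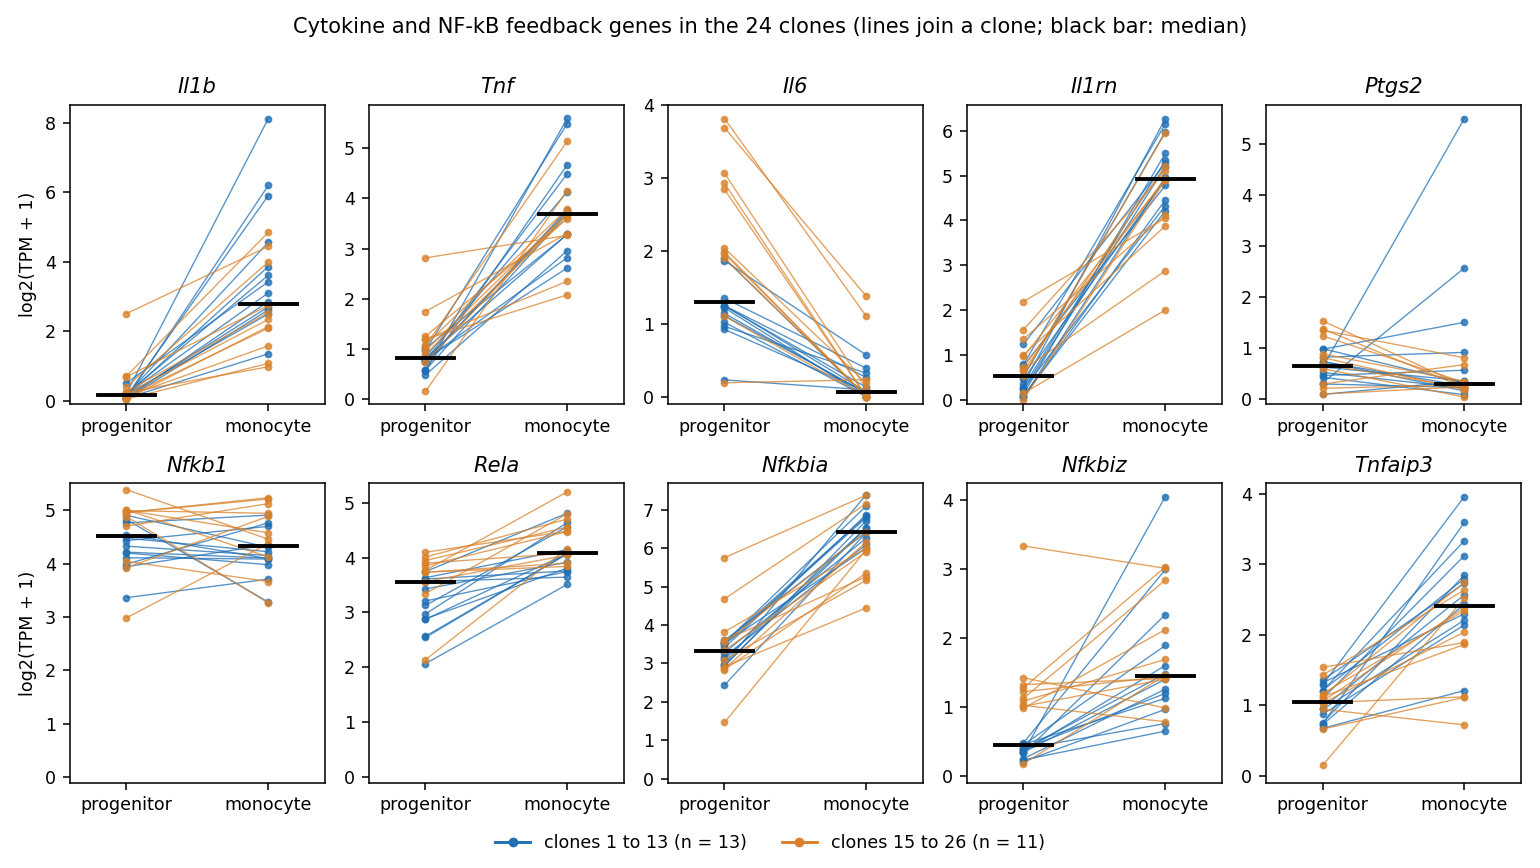
Level of each of the 10 genes in log2(TPM + 1), with progenitor and monocyte libraries side by side, a line for each of the 24 clones and a black bar at the median. Blue lines are clones 1 to 13 and orange lines clones 15 to 26. Il1rn, Tnf and Nfkbia lines all climb, Il6 lines descend in 23 of 24 clones, and Ptgs2 stays low apart from monocyte clones 1 and 10.

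Interleukin 1 beta, the cytokine of fever and neutrophil recruitment, was almost absent from progenitors. Il1b ranged from 0.0287 to 4.67 TPM in progenitors, with a median of 0.123, and only clone 21 was above 1. In monocytes it ran from 0.961 to 277 TPM with a median of 5.94, and clones 1, 10 and 5 led with 277, 72.3 and 58.9. It was higher in the monocyte library of 24 of 24 clones, and 16 monocyte libraries lay above every progenitor library. The rise was 3.0 on the log2 scale (SE 0.32, limma adjusted p = 4.04e-09), and 2.79 without clone 1. Of all 10 genes Il1b had the widest spread among monocyte clones, with an SD of 1.72 on the log2(TPM + 1) scale.

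Tumour necrosis factor rose in every clone, over a narrower range. Tnf lay between 0.11 and 6.03 TPM in progenitors, with a median of 0.773 and its highest value again in clone 21. Monocyte libraries held 3.22 to 47.4 TPM, with a median of 11.9, and clones 10 and 1 led with 47.4 and 44.0. Only monocyte clones 11, 19 and 22 fell within the progenitor range, and that range reached so far through clone 21. The difference was 2.77 (SE 0.22, limma adjusted p = 1.23e-11).

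Interleukin 6, a cytokine of the acute phase response, went the other way. Il6 was between 0.142 and 13.1 TPM in progenitors, with a median of 1.47, and clones 16, 19 and 21 stood highest at 13.1, 11.9 and 7.39. In monocytes its median was 0.0491 TPM, 9 of 24 libraries were listed at 0, and only clones 19 and 16 passed 1 TPM, with 1.60 and 1.15. It was lower in the monocytes of 23 clones and higher only in clone 24, whose progenitor library held the lowest value of all. The fall was 1.5 on the log2 scale (SE 0.17, limma adjusted p = 8.36e-09), and 17 monocyte libraries lay below every progenitor library. Il6 was thus the only cytokine of the 3 with a higher median in progenitors, and in them it was also the most abundant of the 3.

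The interleukin 1 receptor antagonist had the largest change of the 10 genes. Il1rn ran from 0 (clone 21) to 3.56 TPM (clone 23) in progenitors, with a median of 0.433. Monocytes held 3.0 (clone 19) to 76.3 TPM (clone 10), with a median of 29.5, and all but clone 19 lay above every progenitor library. The rise was 4.19 (SE 0.22, limma adjusted p = 3.69e-15), larger than that of 99.2% of the genes tested. The transcript of the antagonist was more abundant than that of the cytokine in most cultures, and proteins were not measured. Il1rn was above Il1b in 22 of 24 monocyte libraries, with a median ratio of TPM of 3.68. The exceptions were clone 1, at a ratio of 0.254, and clone 19, and the highest ratio was 63.5 in clone 24. In progenitors, where both genes were low, Il1rn was the higher in 18 of 24 libraries.

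Cyclooxygenase 2 stayed low in nearly all cultures, and a single library carried most of its signal. Ptgs2 was between 0.0635 and 1.90 TPM in progenitors, with a median of 0.573. In monocytes the median was 0.225 TPM and the range ran from 0.0251 to 44.5, with 44.5 in clone 1, 4.94 in clone 10 and 1.84 in clone 5. It was lower in 15 clones and higher in 9, and the mean difference was 0.00 (95% confidence interval -0.50 to 0.49, limma adjusted p = 0.99). Without clone 1 the difference was -0.22 (adjusted p = 0.203). In clones 15 to 26, where no monocyte library exceeded 0.749 TPM, it was lower, with a difference of -0.50 (SE 0.20, limma adjusted p = 0.0476). Its means there were 0.871 TPM in progenitors and 0.267 TPM in monocytes. Both lie under the filter of 1 TPM, which Ptgs2 passed through monocyte clone 1, outside this set. The constitutive cyclooxygenase Ptgs1 rose in all 24 clones, from a mean of 10.8 to 42.9 TPM (log2 difference 1.97, SE 0.17, limma adjusted p = 6.63e-11).

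Of the subunits of the classical dimer, Rela rose and Nfkb1 was not called. Nfkb1 held 6.92 to 40.9 TPM in progenitors (median 21.8) and 8.62 to 36.7 TPM in monocytes (median 19.1). It was higher in 10 clones and lower in 14, and the difference was -0.10 (95% confidence interval -0.40 to 0.20, limma adjusted p = 0.554). That call depends on the scale: with mitochondrial, Gm-named and pseudogene-like entries removed and the rest rescaled, the median of all genes moved from -0.06 to -0.25, and Nfkb1 was lower, with a difference of -0.35 (limma adjusted p = 0.0147), which is -0.10 relative to that median. The same rescaling raised the levels themselves, for Nfkb1 to medians of 38.2 TPM in progenitors and 29.8 TPM in monocytes. Rela held 3.19 to 16.1 TPM in progenitors (median 10.8) and 10.4 to 35.7 TPM in monocytes (median 15.9). It was higher in the monocytes of all 24 clones, by 0.86 (SE 0.13, limma adjusted p = 8.40e-07), although the ranges overlapped and 11 monocyte libraries exceeded all progenitors. The balance of the transcripts shifted with it: the median ratio of Nfkb1 to Rela was 2.30 in progenitors, where Nfkb1 was the higher in 24 of 24, and 1.11 in monocytes, where it was the higher in 19.

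IkB alpha, the inhibitor that NF-kB itself induces, rose most among the feedback genes. Nfkbia lay between 1.76 (clone 24) and 52.9 TPM (clone 21) in progenitors, with a median of 8.94. In monocytes it lay between 20.8 (clone 22) and 167 TPM (clone 10), with a median of 84.1, and only clones 19, 22, 23 and 26 stayed within the progenitor range. It was higher in all 24 clones, by 2.97 (SE 0.16, limma adjusted p = 7.71e-15). Against the subunit transcripts it changed places. The median ratio of Nfkbia to Nfkb1 was 0.426 in progenitors, where Nfkbia was the higher in clone 21 only, and 4.30 in monocytes, where it was the higher in all but clone 22. Its median ratio to Rela was 0.977 in progenitors and 4.82 in monocytes, where Nfkbia was the higher in 24 of 24.

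A20 and IkB zeta rose less. Tnfaip3 was between 0.105 and 1.90 TPM in progenitors (median 1.06) and between 0.647 and 14.6 TPM in monocytes (median 4.31). It was higher in 23 clones, and lower only in clone 19, with a difference of 1.35 (SE 0.16, limma adjusted p = 2.42e-08), and 20 monocyte libraries exceeded all progenitors. Nfkbiz was between 0.129 and 9.10 TPM in progenitors (median 0.368) and between 0.566 and 15.6 TPM in monocytes (median 1.73). Its ranges overlapped almost wholly, because progenitor clone 21 held 9.10 TPM, and only monocyte clone 1 lay above that. It was higher in 21 clones and lower in clones 19, 21 and 22, with a difference of 0.97 (SE 0.19, limma adjusted p = 4.28e-05).

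The order of the levels, which can be compared between genes because TPM are corrected for length, was led by the dimer in progenitors and by its inhibitor in monocytes. In progenitors the medians ran from Nfkb1, Rela and Nfkbia through Il6, Tnfaip3, Tnf, Ptgs2, Il1rn and Nfkbiz down to Il1b. Nfkb1 was above Rela in all 24 progenitor libraries, Nfkbia above Il6 in 22 and Nfkbiz above Il1b in 22, while Rela was above Nfkbia in 14, Tnfaip3 above Tnf in 13 and Il1rn above Nfkbiz in 10, so those last neighbours did not part. In monocytes the order was Nfkbia, Il1rn, Nfkb1, Rela, Tnf, Il1b, Tnfaip3, Nfkbiz, Ptgs2 and Il6. Nfkbia was above Il1rn in all 24 monocyte libraries, Il1b above Tnfaip3 in 21 and Nfkbiz above Ptgs2 in 21. Il1rn was above Nfkb1 in 16 and Tnf above Il1b in 15. The ranges of all neighbours overlapped in both states.

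The clones form 2 sets, 1 to 13 (n = 13) and 15 to 26 (n = 11), that earlier results on all genes had parted and that no label names. Each of the 8 genes called over all clones had the same direction in both sets. In clones 1 to 13 these same 8 were called, where 71.7% of all genes were (38.8% higher, 32.8% lower). In clones 15 to 26 Nfkbiz was not called and Ptgs2, at means under 1 TPM in both states, was called lower. There 45.2% of all genes were called (17.8% higher, 27.4% lower). Il1rn rose less in clones 15 to 26, by 3.47 (SE 0.34) against 4.79 (SE 0.17), a difference of -1.32 between the sets (SE 0.38, limma adjusted p = 0.026). Nfkbia also rose less there, by 2.48 (SE 0.26) against 3.38 (SE 0.14), a difference of -0.90 (SE 0.29, adjusted p = 0.0417). Il6 fell by 2.05 (SE 0.27) in clones 15 to 26 and by 1.04 (SE 0.11) in clones 1 to 13, a difference of -1.01 (SE 0.28, adjusted p = 0.0207). These 3 members, all with a lower value in clones 15 to 26, stand beside 11.5% of all genes called for this difference, 9.79% of them lower and 1.66% higher. Without clone 18, 19, 22 or 23 the call of Il1rn was lost (adjusted p up to 0.0573), that of Nfkbia was lost in 15 of the 24 fits that left out 1 clone (adjusted p up to 0.0803), and that of Il6 was lost with a pseudocount of 0.1 TPM (adjusted p = 0.143).

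For the other 7 genes the difference between the sets was not called. Il1b rose by 3.75 (SE 0.46) in clones 1 to 13 and 2.13 (SE 0.29) in clones 15 to 26, a difference of -1.62 (SE 0.58, limma adjusted p = 0.0665) that was called with a pseudocount of 0.1 TPM (adjusted p = 0.0256). Tnfaip3 rose by 1.70 and 0.92, a difference of -0.78 (adjusted p = 0.0714). Tnf rose by 3.15 and 2.33 (difference -0.82, adjusted p = 0.2). Ptgs2 had a change of 0.42 in clones 1 to 13, not called (adjusted p = 0.341), and of -0.50 in clones 15 to 26, a difference of -0.92 (SE 0.46, adjusted p = 0.186). Nfkbiz rose by 1.32 in clones 1 to 13, while in clones 15 to 26 it was 0.56 higher (adjusted p = 0.0748). Nfkb1 (0.02, 95% confidence interval -0.59 to 0.63) and Rela (-0.22, -0.74 to 0.29) showed the smallest differences between the sets.

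**Figure D2:**
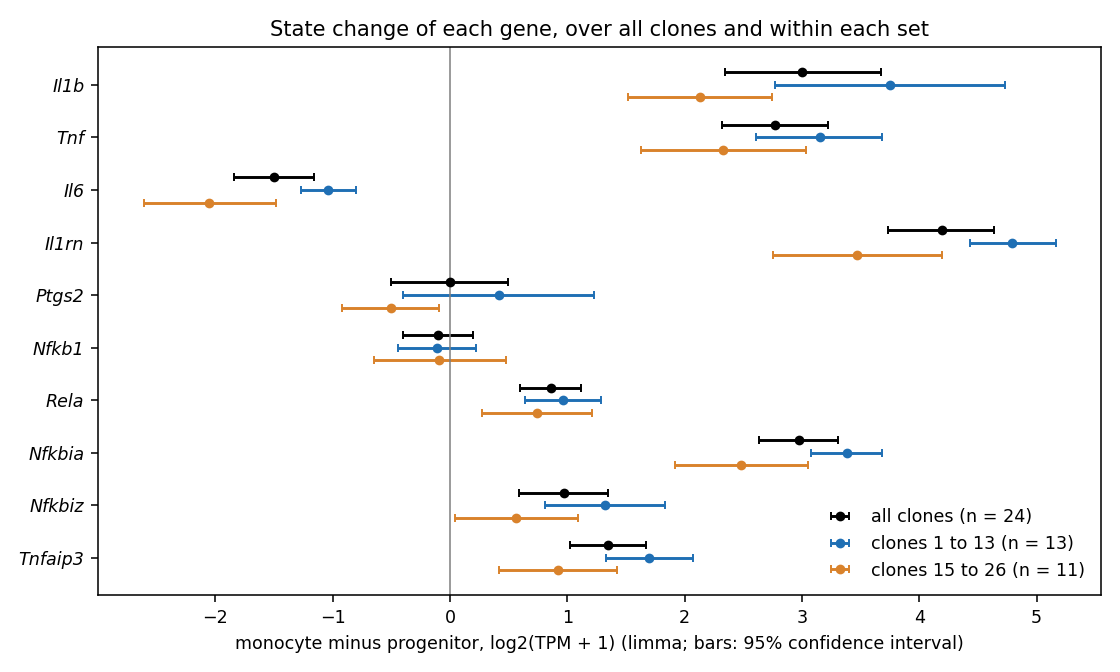
Monocyte minus progenitor difference of each gene on log2(TPM + 1), over all 24 clones in black, clones 1 to 13 in blue and clones 15 to 26 in orange, with bars for the 95% confidence interval from limma. The blue point lies to the right of the orange one for 9 genes, and for Nfkb1 the values are -0.11 and -0.09. Over all genes tested, 71% had a smaller or more negative change in clones 15 to 26.

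Within the progenitors alone the sets already differed in 4 of the 10 genes. Il6 was higher in clones 15 to 26 by 1.13 (SE 0.31, limma adjusted p = 0.00593), with a median of 3.11 TPM against 1.33 TPM in clones 1 to 13. Nfkbiz was higher by 0.92 (SE 0.20, adjusted p = 0.00106), with medians of 1.18 and 0.277 TPM. Its ranges overlapped, at 0.129 to 9.10 TPM in clones 15 to 26 and 0.153 to 0.393 TPM in clones 1 to 13. The overlap came from clone 24, at 0.129 TPM, and the next lowest of clones 15 to 26 held 0.972 TPM. How many of all genes part the sets to this degree was not counted. Rela (0.55, adjusted p = 0.043) and Il1rn (0.49, adjusted p = 0.0481) were also higher in clones 15 to 26. Of all genes tested 39.4% were called in this comparison, 28.5% higher and 10.9% lower, so 4 of 10 does not set these genes apart. Without clones 19, 21, 24 and 26 it was 7 of the 10 genes, with Tnf, Nfkb1 and Ptgs2 added, but then 68.9% of all genes were called and 57.7% were higher. Within the monocytes none of the 10 was called by limma. Of all genes only 7.11% were called (3.92% higher, 3.19% lower), so the lack of a call does not set the 10 genes apart. At an unadjusted p under 0.05 there were 4, all lower in clones 15 to 26: Tnfaip3 (-0.77, p = 0.0106), Nfkbia (-0.68, p = 0.0148), Il1rn (-0.83, p = 0.0288) and Il1b (-1.29, p = 0.0497), with adjusted p from 0.0935 to 0.222. At that unadjusted threshold stood 22.5% of all genes, 11.7% lower and 10.8% higher. Other values moved with the sets: in progenitors the mitochondrial share had a median of 5.39% in clones 1 to 13 and 11.9% in clones 15 to 26, and monocyte markers summed to medians of 12976 and 7859 TPM in the monocyte libraries. Neutrophil markers summed to medians of 83998 and 15681 TPM in the same monocyte libraries. In progenitors the scaling factor by the median of ratios, which follows the general level of genes, also differed. It ran from 0.595 to 1.239 in clones 1 to 13 and from 0.361 to 1.619 in clones 15 to 26. The sets were not compared on values scaled that way. The part of all these values in the differences between the sets was not tested.

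Some clones were high or low in many of the 10 genes together. Monocyte clone 1 had the highest level of Il1b, Nfkbiz, Tnfaip3 and Ptgs2 and was among the highest 3 in 7 genes. Clone 10 had the highest Il1rn, Tnf and Nfkbia and was among the highest 3 in 6 genes, and clone 5 in 5. At the other end, monocyte clones 19 and 22 were each among the lowest 3 in 6 genes, and both were there for Il1rn, Tnf, Nfkbia and Tnfaip3. The summed monocyte markers took the same places: clones 10, 1 and 5 had the highest sums, at 20542, 18392 and 15869 TPM, and clones 19 and 22 the lowest, at 2128 and 3312 TPM. Lyz2 weighed heavily in these sums. Its mean in monocyte libraries was 9113 TPM, beside 1151 TPM for Ly6c2 and 38.3 TPM for Ccr2, where the median sum was 11644 TPM. Clone 19 held the highest sum of mast cell and basophil markers among monocyte libraries, 2084 TPM, and clone 22 the highest sum of progenitor markers, 334 TPM. The part of these marker levels in the results was not tested. Among progenitors clone 21 was highest in Il1b, Tnf, Nfkbia, Nfkbiz and Tnfaip3, and clones 9 and 24 were each among the lowest 3 in 7 genes. Progenitor clone 21 also had the highest monocyte marker sum of its state, 1366 TPM, and clones 24 and 9 the lowest, 85.0 and 124 TPM. Clone 21 also stood high in neutrophil markers (6240 TPM, second to clone 20) and eosinophil markers (129 TPM, the highest) and low in progenitor markers (246 TPM), and clone 24 had the lowest progenitor marker sum (226 TPM) and the highest mitochondrial share of its state (16.7%). The scaling factor by the median of ratios follows the general level of genes above 0 in every library. Among progenitors it was lowest in clones 24 (0.361) and 9 (0.595), and clone 21 had 0.879. Among monocytes it was 0.640 in clone 19, 1.256 in clone 22, 1.061 in clone 10, 1.209 in clone 5 and 1.311 in clone 1. How often these libraries ranked high or low over all genes was not counted.

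**Figure D3:**
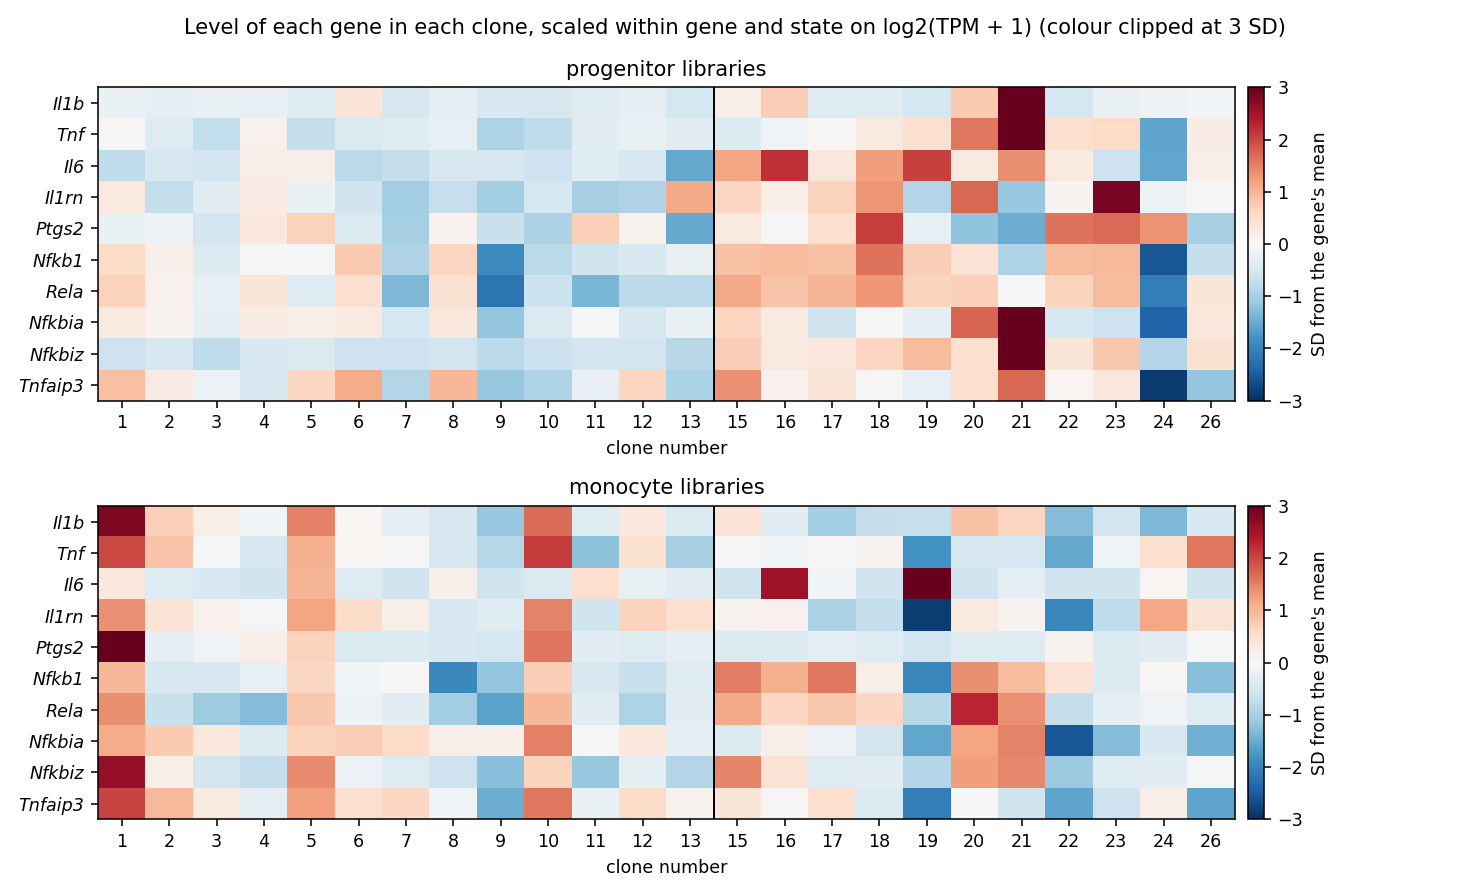
Level of each gene (rows) in each clone (columns), for progenitor libraries above and monocyte libraries below, in SD from the gene's mean within that state on log2(TPM + 1), with colour clipped at 3 SD. A black line parts clones 1 to 13 from clones 15 to 26. Monocyte clones 1, 5 and 10 are red in most rows, monocyte clones 19 and 22 are blue in most rows, and progenitor clone 21 stands out in 5 rows.

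Several pairs of the 10 genes rose and fell together from clone to clone within a state. Of the 45 pairs, 17 had a correlation past the threshold across the 24 monocyte libraries (two-sided permutation test of 100000 pairings, adjusted over all genes for each member, with the larger adjusted p of the pair), and 11 did so in progenitors. On the rescaled values the order turned, with 10 pairs in monocytes and 18 in progenitors. No passing pair was negative. These counts stand beside a high background: over the 10 genes, 18.5% of all correlations with other genes passed in monocytes and 30.2% in progenitors. The 11 of 45 pairs in progenitors were a smaller share than that, and the 17 of 45 in monocytes a larger one. A pair had to pass for both of its genes, a stricter rule than that of the background. No background was taken on the rescaled values. In progenitors the share was highest for the dimer genes Nfkb1 (73.2%) and Rela (69.7%), followed by Tnfaip3 (41.7%), Il6 (37%), Nfkbiz (29.4%), Tnf (20.6%), Nfkbia (15.6%) and Il1rn (12.7%), and was low for Ptgs2 (1.24%) and Il1b (1.17%). In monocytes Nfkb1 (41.1%), Nfkbiz (29.4%), Rela (29.3%) and Nfkbia (28.2%) led, Tnfaip3 (22.9%), Il1b (19.1%) and Il1rn (12.1%) followed, and Ptgs2 (1.55%), Tnf (0.786%) and Il6 (0.172%) came last. In monocytes Il1b and Nfkbiz had the highest correlation, r = 0.83 (adjusted permutation p = 0.00221, rho = 0.717 with permutation p = 1.10e-04). It was 0.961 within clones 1 to 13, 0.911 within clones 15 to 26 and 0.754 without clones 1 and 10, the 2 farthest from the median. Il1rn and Tnf had r = 0.775 (adjusted permutation p = 0.0079, rho = 0.722 with permutation p = 7.00e-05), and r = 0.686 without clones 19 and 22. The feedback genes Nfkbia and Tnfaip3 had r = 0.714 (adjusted permutation p = 0.00306, rho = 0.666 with permutation p = 6.40e-04). By contrast, the correlation of Il1b with Ptgs2 rested on clones 1 and 10: r was 0.738 with them (adjusted permutation p = 0.0257, rho = 0.358 with permutation p = 0.088) and 0.343 without them. Il6 passed with none of the other 9 genes in monocytes, where r ran from -0.321 with Il1rn to 0.0296 with Nfkbiz.

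The dimer genes correlated in both states, on a high background. In progenitors Nfkb1 passed with 73.2% of all genes and Rela with 69.7%, and in monocytes with 41.1% and 29.3%. Nfkb1 and Rela had r = 0.904 in progenitors (adjusted permutation p = 3.47e-05, rho = 0.889 with permutation p = 1.00e-05, the smallest that these pairings can give) and r = 0.817 in monocytes (adjusted permutation p = 3.70e-04, rho = 0.814 with permutation p = 1.00e-05). In progenitors Tnf and Nfkbiz had r = 0.887 (adjusted permutation p = 5.86e-04, rho = 0.761 with permutation p = 2.00e-05), 0.717 without clones 20 and 21. Il6 and Nfkbiz had r = 0.677 (adjusted permutation p = 0.00355, rho = 0.8 with permutation p = 2.00e-05), and with each set of clones centred on its own mean it was 0.463 and no longer passed. Some progenitor pairs had a lower r without clones 20 and 21. Tnf and Nfkbia had r = 0.816 (adjusted permutation p = 0.00239) but rho = 0.31 (permutation p = 0.139), and r = 0.458 without clones 20 and 21. Il1b and Nfkbia had r = 0.769 (adjusted permutation p = 0.0354, rho = 0.643 with permutation p = 8.40e-04), r = 0.334 without those clones and r = 0.513 within clones 1 to 13. With the sets centred, 4 progenitor pairs passed in place of 11.

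**Figure D4:**
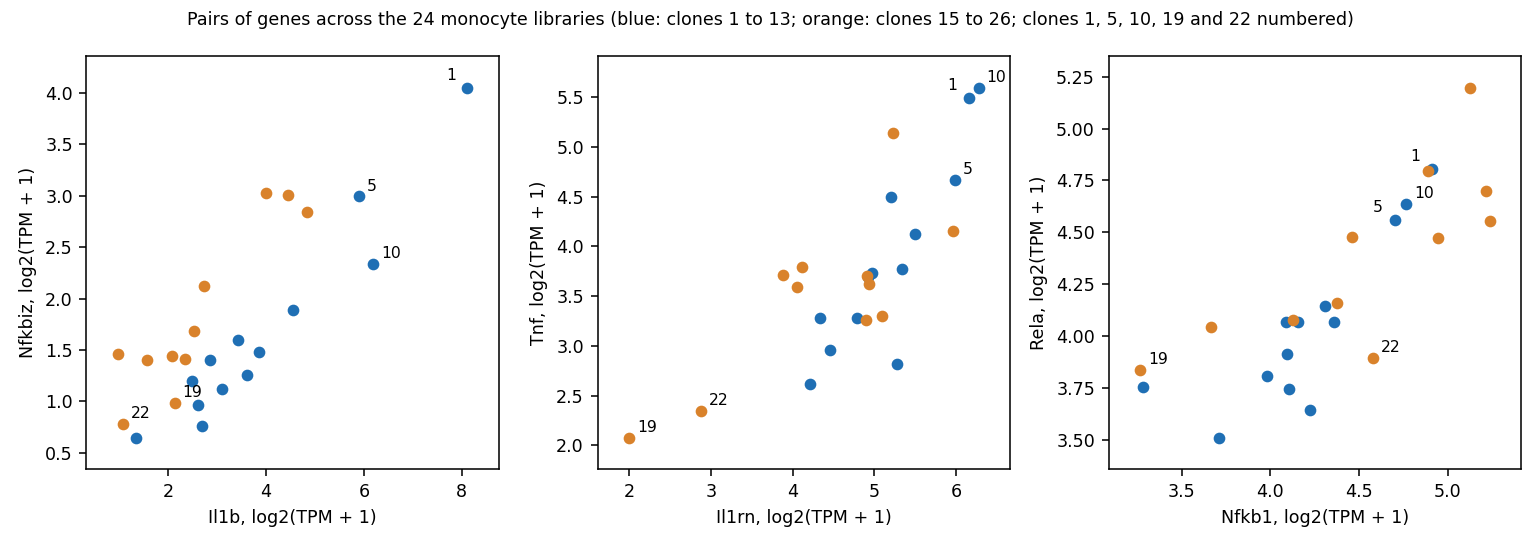
Level of Nfkbiz against Il1b, Tnf against Il1rn and Rela against Nfkb1 in log2(TPM + 1) across the 24 monocyte libraries, clones 1 to 13 in blue and clones 15 to 26 in orange. The points climb together in each panel (r = 0.83, 0.775 and 0.817), and clones 1, 5 and 10 lie toward the upper right in the Nfkbiz and Tnf panels.

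Among the 6 genes tested, a clone high as a progenitor was not detectably high as a monocyte on the values as deposited. These 6 genes reached in each state a mean of 1 TPM and an SD of 0.25 on the log2(TPM + 1) scale. For none of them did the correlation between a clone's progenitor and monocyte level pass (one-sided permutation test of 100000 pairings, adjusted over 9570 genes). Of all genes only 3.66% passed, so the lack of a pass does not set these 6 genes apart. Nfkbia had r = 0.402 (adjusted permutation p = 0.183, rho = 0.344 with permutation p = 0.0494) and 0.281 without clones 21 and 24. Rela had r = 0.364 (adjusted permutation p = 0.235, rho = 0.377 with permutation p = 0.0353), and on the rescaled values it passed with r = 0.578 (adjusted permutation p = 0.0316). The values for Nfkbiz, Nfkb1, Tnfaip3 and Tnf were 0.294, 0.205, 0.191 and -0.252, with adjusted permutation p from 0.363 to 0.937. Within clones 15 to 26 r was 0.635 for Nfkbia, 0.474 for Nfkbiz and 0.146 for Nfkb1. Within clones 1 to 13 these were 0.0244, 0.3 and 0.107. For Rela, Tnfaip3 and Tnf it was lower in clones 15 to 26 (0.175, 0.112 and -0.289) than in clones 1 to 13 (0.264, 0.39 and -0.0427). The values within the sets were not tested. Il1b, Il1rn, Il6 and Ptgs2 were below 1 TPM on average in 1 of the states and had no place in this test. Il6 had r = 0.53 but rho = 0.0518 (permutation p = 0.404), and r = -0.171 without clones 16 and 19.

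The gene most like each of the 10 was taken as the highest Pearson r across the 24 clones of a state, among genes with a mean of at least 5 TPM and an SD of at least 0.5 (4409 in progenitors, 5289 in monocytes), as a description. In monocytes the partner of Tnf was Sod2, the mitochondrial superoxide dismutase and a well known NF-kB target, with r = 0.87 and rho = 0.89. Il6 was most like Mcpt8, a basophil protease (r = 0.791, rho = 0.782), whose highest level was 1530 TPM in clone 19, the clone with the highest monocyte Il6. Rela was most like Sbno2 (r = 0.961), Nfkb1 like Pik3ca, a catalytic subunit of phosphoinositide 3-kinase (r = 0.936), and Nfkbiz like Rhbdf2, which guides the protease that releases tumour necrosis factor (r = 0.9). Il1b was most like Acss2, an acetyl-CoA synthetase (r = 0.916), Nfkbia like Siglece, an inhibitory sialic acid receptor (r = 0.908), Tnfaip3 like Scamp1 (r = 0.867) and Il1rn like Atp6v1h, a subunit of the lysosomal proton pump (r = 0.842). The match of Ptgs2 with Fxyd2 (r = 0.952, rho = 0.258) rested on clone 1, where Fxyd2 reached 148 TPM against a median of 0.0124. In progenitors the partners were Maz for Rela (r = 0.984), Lonrf1 for Nfkbiz (0.958), Thrap3 for Nfkb1 (0.957), Rgcc for Nfkbia (0.904), Pigu for Tnf (0.899), Plcg1 for Il6 (0.87), Washc2 for Tnfaip3 (0.866), Ctss for Il1rn (0.786) and Slc3a2 for Ptgs2 (0.753). The progenitor partner of Il1b was the gene model Gm21798 (r = 0.955, rho = 0.408), with 2572 TPM in clone 21 and a median of 0.386.

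The rest of the pathway was read from 12 lists of genes chosen from general knowledge, with 128 genes beside the 10, of which 105 passed the filter of 1 TPM. Of these 77 were higher and 6 lower in monocytes, with a median difference of 1.11 where the median of all genes tested was -0.06. Over all genes tested 32.4% were higher and 36.5% lower, and these shares also stand beside each count by list. The lower genes numbered 16 on the rescaled values and 11 after scaling by the median of ratios. The counts by list that follow include the 10 genes themselves. In them a gene is named measured if it passed the filter, so listed genes below 1 TPM on average are left out. All 5 NF-kB subunits passed the filter and 4 of them rose. Relb and Nfkb2, the subunits of the alternative dimer, rose from means of 1.14 to 5.96 TPM (1.76, SE 0.15, limma adjusted p = 4.41e-11) and from 2.88 to 9.50 TPM (1.5, SE 0.14, limma adjusted p = 2.14e-10), each in 24 of 24 clones. All 6 members of the IkB family rose, with a median of 1.62, and Bcl3, a nuclear member, rose from 0.852 to 15.2 TPM (3.11, SE 0.14, limma adjusted p = 5.59e-17). Of 12 measured deubiquitinases and other feedback inhibitors 9 rose and none fell, among them the A20 partners Tnip3 (2.30) and Tnip1 (1.72). Upstream of NF-kB the picture was mixed. Of 21 adaptors and kinases 10 rose, 1 fell and 10 were not called, and the median was 0.26. Irak2 (3.08) and Myd88 (2.05), which carry signals from interleukin 1 and Toll-like receptors, rose most, while the ubiquitin-conjugating enzyme Ube2n fell by 0.30 (limma adjusted p = 0.00782), a call not made in clones 15 to 26 alone.

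Among the ligand and receptor lists, 6 of 9 measured interleukin 1 family genes rose and 2 fell. The falling ones were Sigirr, an inhibitory receptor of the family, from 57.3 to 10.4 TPM (-2.33, SE 0.16, limma adjusted p = 4.01e-13), and Il1rap, the shared accessory chain of the receptor, from 3.18 to 1.01 TPM (-0.96, SE 0.15, limma adjusted p = 2.65e-06). All 9 measured genes of the inflammasome and interleukin 1 maturation rose, led by the sensor Nlrp3, from 0.55 to 10.4 TPM (2.61, SE 0.18, limma adjusted p = 7.35e-13), and Casp4 (2.17). Of the 7 measured genes of the TNF family 6 rose, with Tnfsf12 at 2.47. In the interleukin 6 list the cytokine fell and all 5 other measured genes rose. The receptor chain Il6ra went from 0.935 to 9.16 TPM (2.29, SE 0.15, limma adjusted p = 1.52e-13), and the transducer Stat3 from 20.4 to 49.3 TPM (1.18, SE 0.29, limma adjusted p = 7.76e-04), although Stat3 was called in clones 1 to 13 (2.03) and not in clones 15 to 26 (0.18, adjusted p = 0.698).

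**Figure D5:**
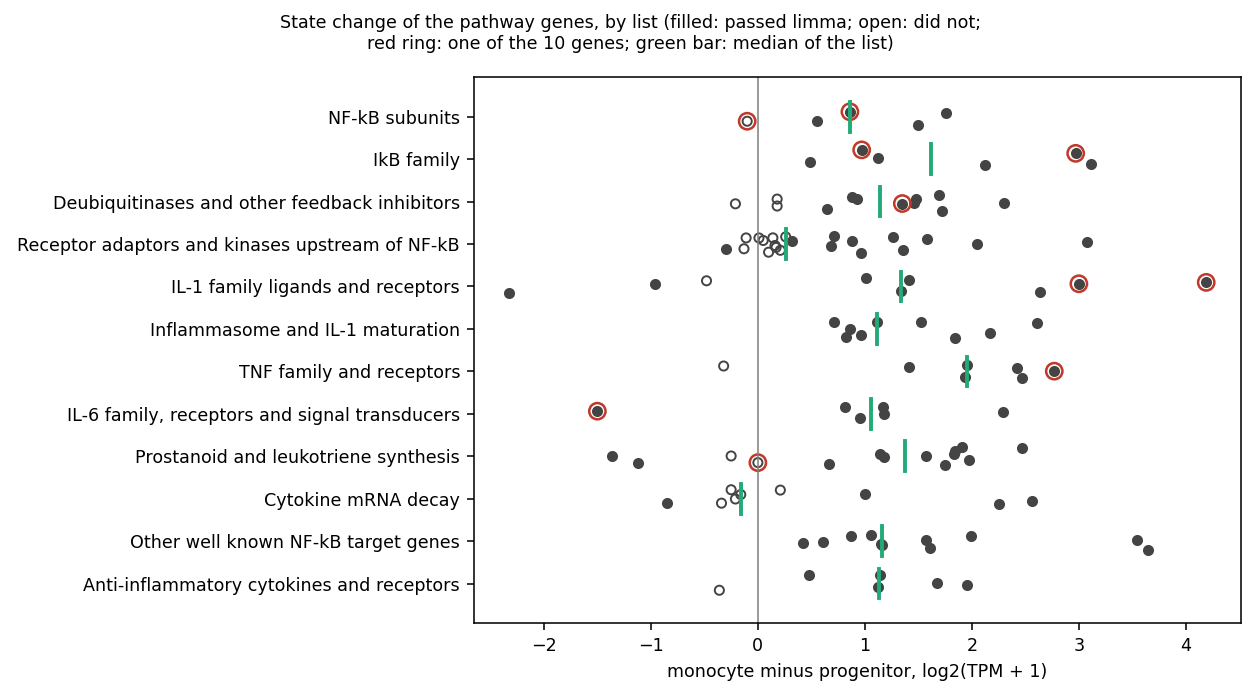
Monocyte minus progenitor difference on log2(TPM + 1) for each gene of the 12 pathway lists (rows) with a mean of at least 1 TPM, with filled points for genes that passed limma, open points for those that did not, red rings around the 10 genes and green bars at each list's median. The list medians lie between 0.86 and 1.95 except for the upstream adaptors and kinases at 0.26 and the mRNA decay genes at -0.16.

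In the eicosanoid list 10 of 14 measured genes rose and 2 fell. Alox5ap, the activator of 5-lipoxygenase, rose from 219 to 1257 TPM (2.47, SE 0.10, limma adjusted p = 1.20e-17). The phospholipase Pla2g4a, which frees arachidonic acid for both pathways, fell from 71.0 to 33.4 TPM (-1.36, SE 0.31, limma adjusted p = 3.82e-04), with a difference of -2.42 in clones 15 to 26 and one of -0.46 in clones 1 to 13 that was not called. Ptges3 fell by 1.12. Among 9 genes of cytokine mRNA decay 3 rose, 1 fell and 5 were not called: Zfp36, which encodes tristetraprolin, a protein that destabilises Tnf mRNA, rose from 1.88 to 19.3 TPM (2.56, SE 0.19, limma adjusted p = 3.93e-12), its relative Zfp36l1 rose by 2.25, and Hnrnpd, a protein that binds unstable mRNAs, fell by 0.85. All 11 other measured NF-kB target genes rose, with Gadd45b from 1.74 to 31.1 TPM (3.54, SE 0.17, limma adjusted p = 2.12e-16) and Bcl2a1b at 3.65, whose level is uncertain because its family consists of near-identical copies. Of 6 measured anti-inflammatory cytokine and receptor genes 5 rose, Il4ra by 1.95 and Il10ra by 1.67, while Il10 itself was below the filter. The lists were chosen with earlier results of these data known, and a gene low in both states could not enter, so the counts describe the lists and give no support to them.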

How the data were processed

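RNA-seq libraries of 24 ER-Hoxb8 clones were analysed in 2 states, progenitor and monocyte, 48 libraries in all. The authors deposited 1 table of TPM per gene, made with Salmon on mm10, per the submitters' processing notes, which carry no versions. The table has 34643 rows. The 26 rows whose names a spreadsheet had turned into dates were dropped, which left 34617. The largest correlation between 2 libraries was 0.986, and 0 pairs were identical. TPM keep no depth, so the precision of single values is unknown.

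Groups and clone numbers came from the labels, and the series design names the pairing. The deviations of same-numbered libraries from the group means correlated above 0.1 in 18 of 24 clones, and, with the sets centred, in 12, of which 2 were among the 13 clones up to number 13 and 10 among the 11 later ones.

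limma 3.58.1 in R 4.3.3 was fitted to log2(TPM + 1) with clone as a block, a mean-variance trend and Benjamini-Hochberg adjustment over 11072 genes with a mean of at least 1 TPM, two-sided, at 0.05. The same tool tested the difference of the state change between the sets of clones and the sets within a state. Correlations used permutation tests of 100000 pairings with numpy 2.4.6 and scipy 1.17.1 in Python 3.11.15, and figures used matplotlib 3.10.9. The scripts were tested on simulated data. Promoter windows and motifs were read from RefSeq.

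The members and all lists (12 pathway lists and markers of progenitors, monocytes, neutrophils, eosinophils, mast cells and basophils, macrophages, lymphoid, erythroid and megakaryocyte, and stromal and endothelial cells) were chosen with earlier results of these data known. Named beside the members were, per pathway list, up to 2 genes called higher and 2 called lower with the largest change, and the gene most like each member in each state. Alternatives changed the pseudocount, the filter, the scaling, the block, the sets and the clones included. Marker sums of erythroid cells and megakaryocytes had medians of 189 TPM in progenitors and 35.6 TPM in monocytes, and those of stromal and endothelial cells 35.8 and 11.1 TPM. The sum of the lymphoid markers is not reported here.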

Additional observations from a re-analysis of the deposited data

Results flagged for a closer look

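For 8 genes the change from progenitor to monocyte differed between clones 1 to 13 and clones 15 to 26 by the limma test of that difference itself. Among the 10 genes these were Il1rn (-1.32, adjusted p = 0.026), Il6 (-1.01, adjusted p = 0.0207) and Nfkbia (-0.90, adjusted p = 0.0417), all in log2 as clones 15 to 26 minus clones 1 to 13. Among the named pathway genes, Irak2 rose by 3.78 in clones 1 to 13 and less, by 2.24, in clones 15 to 26 (difference -1.54, limma adjusted p = 0.00879). Stat3 rose by 2.03 in clones 1 to 13 and stood 0.18 higher in clones 15 to 26, where it was not called (difference -1.85, limma adjusted p = 0.0143). Ptgs1 rose by 2.39 and 1.48 (difference -0.91, limma adjusted p = 0.0486), and Bcl2a1b, a gene with near-identical copies, by 4.19 and 3.01 (difference -1.18, limma adjusted p = 0.0488). Pla2g4a had a change of -0.46 in clones 1 to 13, where it was not called, and of -2.42 in clones 15 to 26 (difference -1.96, limma adjusted p = 0.0161). These were 3 of the 10 genes and 5 of the 26 named pathway genes, all negative, where 9.79% of all genes were called negative and 1.66% positive, and 71% of all genes had a difference below 0. The 26 genes were named for the size of their state change in these same data, so the share over all genes is no fair measure for them. Among the marker genes, Hbb-bs (2.57, limma adjusted p = 2.48e-04) and Dntt (2.25, limma adjusted p = 0.00148) passed in the other direction. No label names the sets, and mitochondrial and marker values moved with them.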

How the results depend on the processing

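The state calls of the members kept to 7 higher and 1 lower in each fit that left out a single clone (7456 to 7842 genes called), without clones 19, 21, 24 and 26, and without clones 19, 20, 21, 22, 24 and 26. In the fit with no replicate block, that is without the pairing by clone, 7436 genes were called (3512 higher, 3924 lower) with the same 7 and 1 members. With no filter 6152 genes were lower. With a mean of at least 5 TPM required, Il6 left the test and 0 members were lower, with 5 higher. Rescaled without mitochondrial, Gm and pseudogene-like entries, 2969 genes were higher and 4823 lower against 3584 and 4039 as deposited, 2 members (Il6 and Nfkb1) and 16 pathway genes were lower, and after scaling by the median of ratios 11 pathway genes were lower. In clones 15 to 26 alone 5005 genes were called, 1974 of them higher, and 2 members were lower.

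For the difference of the state change between the sets, leaving out 1 clone gave 725 (without clone 18) to 3036 (without clone 24) genes, 111 to 336 higher and 614 to 2793 lower, and 1 (without clone 18, 19, 22 or 23) to 5 (without clone 8) members. It gave 2938 genes (334 higher, 2604 lower) without clones 19, 21, 24 and 26, 3302 (560 higher, 2742 lower) without clones 19, 20, 21, 22, 24 and 26, and 277 higher when rescaled. Within progenitors the sets differed in 7632 genes (6387 higher, 7 members) without the 4 clones and in 7458 (6276 higher, 7 members) without the 6. Within monocytes 167 were lower without the 4 clones, 1184 differed (874 higher) without the 6, and rescaled 973 were higher and 200 lower, with 1 member, Rela, higher. Clone differences shared by both states were found in 24 genes with the sets centred, 833 when rescaled (1 member, Rela) and 618 without the 4 clones. Member pairs passed in progenitors in 4 (sets centred), 18 (rescaled) and 17 (without the 4 clones) cases and in monocytes in 10 (rescaled). Nfkbiz and Ptgs2 in progenitors turned from r = -0.0605 to r = 0.593 (adjusted permutation p = 0.0244) without the 4 clones. The cause of these changes was not tested. The fits without 6 clones, and those of member pairs under other settings, were chosen after seeing the data. Leaving out single clones was not run for correlations. Depth is unknown, so no limit of detection could be set for genes near 0.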
